A study of Mus musculus with 72 samples.

Results

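Bintrafusp alfa given together with radiation was compared with radiation alone in mouse breast tumours, 18 mice of the 36 in the series. Tumours grew from 4T1, a BALB/c mammary carcinoma cell line, in the thigh of female BALB/c mice aged 6 to 12 weeks. Cells were placed on day -6, treatment began on day 0 and the tumours were taken on day 6. The 9 mice of the combination group (BA+RT) received radiation and bintrafusp alfa, which the labels call M7824 and the design text doses at 492 µg. The 9 mice of the radiation group (RT) received radiation and, per the design text, an isotype antibody. The remaining mice, 9 on isotype antibody alone (400 µg) and 9 on bintrafusp alfa alone (BA), served to set the response beside the one without radiation. The 18 compared were the mice whose treatment label names radiation, and 36 of the 72 libraries came from them, because each tumour was read on 2 targeted amplicon panels. The labels call the tissue orthotopic although the design text gives an intramuscular thigh site, and the sources used here state no radiation dose. All groups carried the same injected line, so host cells and tumour cells contributed to every library.

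Bintrafusp alfa is a fusion protein that joins an antibody against PD-L1 to the extracellular part of the TGF-β receptor II, so that it blocks the checkpoint ligand and traps TGF-β ligand. TGF-β signals through paired receptor kinases to Smad factors, drives matrix production by fibroblasts and restrains cytotoxic lymphocytes. PD-L1 on tumour and myeloid cells engages PD-1 on T cells and dampens them. Killer T cells and natural killer cells act through granules that hold the pore protein perforin and serine proteases named granzymes.

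Total counts ran from 1526991 to 2616197 per RT library and from 1756429 to 2178557 per BA+RT library on panel 1, and from 546144 to 775133 and 591551 to 821436 on panel 2. Values below are CPM, counts per standard library total, set for each panel on its own, with factors from the trimmed mean of M-values (TMM), and are compared between mice, not between genes. Of 1224 genes on the panels 1038 were expressed well enough to be tested. Of these 112 genes, 10.8%, were called between BA+RT and RT at an edgeR adjusted p under 0.05, 38 higher (3.66%) and 74 lower (7.13%). At an unadjusted p under 0.05 there were 257. Counts of calls in the gene lists below are to be read beside the shares of 3.66% higher and 7.13% lower. Falls outnumbered rises more strongly under scaling to the 9 reference genes of the panels, which gave 19 genes higher and 96 lower. Under TMM 2 of those reference genes were themselves called higher, Thap3 by 0.25 and Zbtb22 by 0.31 on the log2 scale. No gene separated the groups completely in the upward direction (0%), and 8 genes (0.771%) did so downward, with every BA+RT mouse below every RT mouse. Those 8, named after their values were seen, were Mmp9, Grem1, Cxcr6, Cd40, Cxcr4, Thbs2, Msr1 and Colec12.

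The 5 tested epithelial markers had a summed CPM of 7392 to 11419 in RT and 6056 to 11282 in BA+RT tumours, with none called. Without BA+RT mouse 45, 1 of the 5 was called higher. No tissue without tumour was read, so these values do not test the tumour label. Some tumours stood apart. BA+RT mouse 40 held the highest level of many lymphocyte and class II genes, BA+RT mouse 45 the highest level of skeletal muscle genes, and RT mouse 24 was high for T cell genes. Leaving out 1 mouse at a time gave 76 to 153 calls. Without RT mouse 23 the genes called higher numbered 20, and without BA+RT mouse 45 they numbered 61. With mice 40 and 45 both left out 124 genes were called, 44 higher and 80 lower, of which 93 were among the 112. Where leaving out mouse 40 or 45 ended the call of a gene given here with its value, that is said beside the value. Called genes listed by name only are given without that limit.

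Some transcripts of the cytotoxic granule were higher in the combination group, most of them called so only with mouse 40 included. Prf1, which encodes perforin, rose 5.19-fold, the granzyme genes Gzmb and Gzma 3.71-fold and 2.999-fold, and Nkg7, a membrane protein of cytotoxic granules, 2.57-fold. Of 9 tested genes of the granule 4 rose, 1 fell and 4 were not called, and the median log2 fold change was 0.31 against 0.011 over all tested genes. Without mouse 40 only Prf1 was called higher and the median was 0.13. The summed CPM of the 9 genes, most of it Lamp1 (a lysosomal membrane protein, log2 fold change -0.11, adjusted p = 0.301), had a median of 6485 in RT and 5823 in BA+RT tumours, with overlapping ranges. The gene that fell was Ctsw, a cysteine protease of killer lymphocytes.

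The promoters of the genes that rose are shown because these genes moved together. RefSeq promoters on GRCm38.p6 were searched for TGTGGT on both strands, the letters bound by Runx factors, which take part in killer cell differentiation. The windows below are 120 bases long, written 5′ to 3′ on the gene's strand, and capitals mark each match, which reads ACCACA where it lies on the other strand. Prf1, chr10:61297649-61297768, plus strand: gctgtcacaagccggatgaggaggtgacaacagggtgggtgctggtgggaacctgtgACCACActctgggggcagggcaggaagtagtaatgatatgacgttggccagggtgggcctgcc
Gzmb, chr14:56262335-56262454, minus strand: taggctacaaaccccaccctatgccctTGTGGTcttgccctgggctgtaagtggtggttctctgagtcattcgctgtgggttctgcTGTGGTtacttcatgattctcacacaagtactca
Gzma, chr13:113100982-113101101, minus strand: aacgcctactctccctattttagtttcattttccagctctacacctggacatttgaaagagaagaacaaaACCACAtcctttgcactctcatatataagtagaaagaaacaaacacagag
Nkg7, chr7:43436998-43437117, plus strand: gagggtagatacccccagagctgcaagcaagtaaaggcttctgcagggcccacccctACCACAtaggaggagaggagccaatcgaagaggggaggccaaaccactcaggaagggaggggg
Matches began 130 bases before the start of Prf1, 93 and 34 bases before that of Gzmb, 50 before that of Gzma and 83 before that of Nkg7. Bases just after the start lay in an annotated transcript of the gene for Gzma and Nkg7, but not for Prf1 and Gzmb. The distances for Prf1 and Gzmb therefore hold for the RefSeq start only. In the 250 bases before the start, 7 of the 8 granule genes with a promoter found held the motif. It stood in 29% of such genes called higher, 22.2% of those called lower and 15.3% of all those tested. Counted by promoter and not by gene, the share was 14% of all 32851 promoters in the table. A match is a string of letters only, and no binding was measured.

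Prf1 ranged from 2.01 to 12.2 CPM in the RT mice (median 3.10) and 8.29 to 108 CPM in the BA+RT mice (median 17.2). All 9 BA+RT mice lay above the RT median and 7 above every RT mouse, while mouse 40 stood far above the other 8 (log2 fold change 2.37, SE 0.50, edgeR adjusted p = 0.00185). Without mouse 40 the rise was 1.62 on the log2 scale and was still called (adjusted p = 0.00893). The Prf1 amplicon lies in a coding exon at chr10:61303348-61303439 on GRCm38.

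Gzmb ranged from 18.6 to 72.2 CPM in the RT mice (median 28.7) and 40.5 to 579 CPM in the BA+RT mice (median 76.6), with its amplicon in a coding exon at chr14:56260218-56260311. All 9 combination mice exceeded the RT median and 7 exceeded the highest RT mouse (log2 fold change 1.89, SE 0.47, edgeR adjusted p = 0.00775). The next BA+RT mouse after mouse 40 was at 117 CPM, and leaving mouse 40 out gave 1.14 (adjusted p = 0.0501).

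Gzma ran from 16.4 to 52.001 CPM in the RT mice (median 24.3) and 25.04 to 315 CPM in the BA+RT mice (median 53.8). The groups overlapped, with 5 BA+RT mice above every RT mouse (log2 fold change 1.58, SE 0.44, edgeR adjusted p = 0.0182). Nkg7 gave 7.24 to 30.4 CPM in the RT mice (median 16.1) and 19.2 to 176 CPM in the BA+RT mice (median 33.5), and again 7 of the 9 were above all RT mice (log2 fold change 1.36, SE 0.39, edgeR adjusted p = 0.0195). Without mouse 40 neither Gzma (0.90, adjusted p = 0.117) nor Nkg7 (0.80, adjusted p = 0.112) was called.

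Il2ra, the high-affinity IL-2 receptor chain of activated and regulatory T cells, rested less on 1 tumour. It ran from 15.5 to 43.7 CPM in the RT mice (median 23.2) and 31.3 to 109 CPM in the BA+RT mice (median 47.1), and 6 combination mice exceeded all RT mice (log2 fold change 1.03, SE 0.25, edgeR adjusted p = 0.00632). The rise without mouse 40 was 0.83 (adjusted p = 0.02), and the call held with any 1 of the 18 mice left out. Ctsw moved the other way, with 36.6 to 52.4 CPM in the RT mice (median 46.7) and 20.8 to 36.8 CPM in the BA+RT mice (median 24.9). Here 8 of 9 BA+RT mice lay below every RT mouse and the exception was mouse 40 (log2 fold change -0.81, SE 0.14, edgeR adjusted p = 0.00014), with -0.89 without it.

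**Figure D1:**
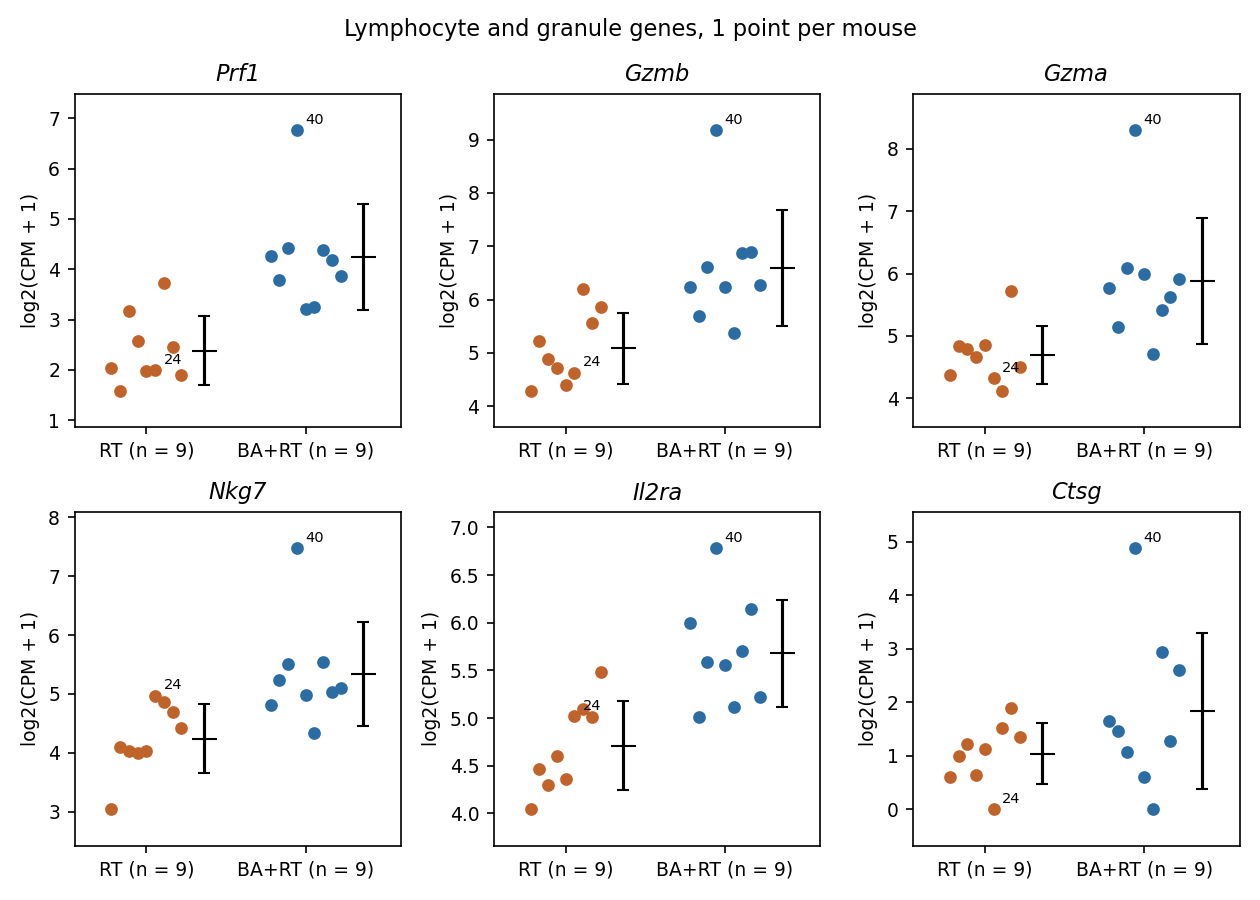
Normalized expression, as log2(CPM + 1), of 6 lymphocyte and granule genes in RT (orange) and BA+RT (blue) tumours, 1 point per mouse, with the mean and SD of each group as black bars beside the points and BA+RT mouse 40 and RT mouse 24 numbered. Mouse 40 is the highest point in all 6 panels, and for Prf1 the other BA+RT mice still lie above the RT median.

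Markers of the lymphocytes themselves were not called. Of 17 tested T cell markers 0 rose and 0 fell, with a median of 0.095. Cd3g, a chain of the T cell receptor complex, ran from 2.76 to 36.9 CPM in the RT mice (median 6.02) and 7.76 to 38.3 CPM in the BA+RT mice (median 11.1), and Cd8a, the coreceptor of killer T cells, from 0 to 9.52 CPM in the RT mice (median 1.03) and 0 to 13.4 CPM in the BA+RT mice (median 2.66). The highest RT values of both belonged to mouse 24 and the highest BA+RT values to mouse 40, and the ranges overlapped (0.63, SE 0.46, adjusted p = 0.428 for Cd3g and 0.78, SE 0.67, adjusted p = 0.511 for Cd8a, as log2 fold change). Without mouse 40 Cd8a was at 0.14 and without RT mouse 24 at 1.53. Cd4, the coreceptor of helper T cells, differed by -0.29 (adjusted p = 0.765) and by 0.13 without RT mouse 24. Cd8a had at most 16 counts in an RT library and 27 in a BA+RT library, so small differences in these genes were not detectable at this depth. The summed CPM of the T cell list was 148 to 517 in RT and 189 to 738 in BA+RT tumours, its highest mouse being 45. In bulk tumour RNA, fewer cells of a type and less RNA per cell cannot be told apart.

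Among 8 receptors and factors of natural killer cells 0 rose and 1 fell, where 7.13% of all tested genes were called lower. The gene that fell was Ncam1, an adhesion molecule that nerve and muscle cells also make (log2 fold change -0.63, SE 0.19, edgeR adjusted p = 0.0261), and its call was lost without any one of RT mice 23 and 24 and BA+RT mice 37, 39 and 40 (-0.56 at the least). Ncr1, the activating receptor NKp46, spanned 0.668 to 8.14 CPM in the RT mice (median 2.51) and 4.54 to 22.9 CPM in the BA+RT mice (median 5.79) and did not pass the test (1.02, SE 0.40, adjusted p = 0.092). Interferon-γ, encoded by Ifng, was at 0 to 9.68 CPM in RT and 2.13 to 24.8 CPM in BA+RT tumours, with the highest value again in mouse 40 (1.19, SE 0.78, adjusted p = 0.373), and the difference was 0.55 without mouse 40 and 1.84 without RT mouse 27.

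Of 13 genes of regulatory T cells, which restrain immune responses, only Il2ra was called, where 3.66% of all tested genes were called higher. Foxp3, the lineage factor, lay at 0.668 to 7.74 CPM in the RT mice (median 3.87) and 2.90 to 8.94 CPM in the BA+RT mice (median 4.15), with ranges that overlapped nearly in full (0.21, SE 0.26, adjusted p = 0.672), and the difference was 0.046 without mouse 40, 0.096 without RT mouse 21 and 0.38 without RT mouse 24. Of 18 inhibitory checkpoint genes 0 rose and 2 fell, namely Cd200 and the gene of its receptor, Cd200r1. Over all tested genes 7.13% were called lower. Cd274, which encodes the PD-L1 that the drug binds, ran from 148 to 365 CPM in the RT mice (median 206) and 157 to 465 CPM in the BA+RT mice (median 193) and was not called (0.12, SE 0.33, adjusted p = 0.868); its difference was -0.069 without mouse 40. Pdcd1, the gene of PD-1, was at no more than 5.35 CPM in RT and 7.45 CPM in BA+RT tumours (0.45, SE 0.37, adjusted p = 0.489), with a difference of 0.26 without mouse 40 and 0.29 without RT mouse 22.

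Of 5 tested genes of neutrophil granules 2 rose, Prtn3 and Ctsg, and 1 fell, Mmp9, with a median of 0.0092. Prtn3, which encodes proteinase 3, ran from 18.6 to 51.1 CPM in the RT mice (median 25.4) and 31.8 to 67.1 CPM in the BA+RT mice (median 49.3) and was higher than the RT median in all 9 mice (log2 fold change 0.78, SE 0.22, edgeR adjusted p = 0.0195), a call that held with each mouse left out. Ctsg, which encodes cathepsin G, was nearly silent, at 0 to 2.71 CPM in RT and 0 to 28.3 CPM in BA+RT tumours. Only 3 BA+RT mice exceeded every RT mouse, and the rise (2.04, SE 0.65, adjusted p = 0.0358) fell to 0.90 (adjusted p = 0.344) without mouse 40. It was also not called without any one of RT mice 19, 20, 22, 23 and 24 or BA+RT mouse 43, where it was 1.91 to 2.03. Ctsg had at most 6 counts in an RT library.

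Genes of matrix breakdown were among the largest falls. Mmp9, a gelatinase of myeloid and tumour cells, was 3.06-fold lower with bintrafusp alfa, Mmp12, the macrophage elastase, 2.35-fold lower, and Mmp13, a collagenase, 1.89-fold lower. Of 14 tested matrix proteases 0 rose and 4 fell, the fourth being the lysosomal cathepsin gene Ctsb, and the median was -0.25. In the list of protease inhibitors 3 of 7 tested genes fell, with 0 rises and a median of -0.38. These were Timp1 and Timp3, whose products inhibit metalloproteinases, and Serpinh1, whose product is a collagen chaperone.

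Mmp9 ran from 3782 to 9833 CPM in the RT mice (median 6443) and 1346 to 3247 CPM in the BA+RT mice (median 2152). The groups did not overlap (log2 fold change -1.61, SE 0.16, edgeR adjusted p = 1.06e-08), and the log2 fold change stayed between -1.71 and -1.52 with each mouse left out. Its amplicon lies in a coding exon at chr2:164951146-164951240. Mmp12 ran from 668 to 1426 CPM in the RT mice (median 938) and 280.3 to 689 CPM in the BA+RT mice (median 378), and 8 of the 9 combination mice were below every RT mouse (log2 fold change -1.23, SE 0.19, edgeR adjusted p = 2.09e-05). Mmp13 spanned 1886 to 3848 CPM in the RT mice (median 2777) and 684 to 3296 CPM in the BA+RT mice (median 1069). Here too 8 mice were below every RT mouse, and mouse 37, at 3296 CPM, lay inside the RT range (log2 fold change -0.92, SE 0.24, edgeR adjusted p = 0.0103).

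Mmp12 and Mmp13 lie in 1 cluster of metalloproteinase genes on chromosome 9, and their promoters are shown because both fell and both hold the letters TGANTCA, the recognition string of AP-1, a Jun and Fos dimer known to act on metalloproteinase genes. Capitals mark the match, which began 44 bases before the start of Mmp12 shown here and 35 before that of Mmp13. Of the 2 promoters listed for Mmp12 only 1 held the string. The string reads the same on both strands at its fixed letters. Mmp12, chr9:7347254-7347373, plus strand: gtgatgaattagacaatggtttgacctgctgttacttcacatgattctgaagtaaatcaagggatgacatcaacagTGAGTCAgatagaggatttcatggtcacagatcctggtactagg
Mmp13, chr9:7272394-7272513, plus strand: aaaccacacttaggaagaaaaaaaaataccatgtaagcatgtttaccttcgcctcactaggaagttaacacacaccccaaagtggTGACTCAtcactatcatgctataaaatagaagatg
Within 250 bases before the start, 4 of the 9 protease genes with a promoter found held the string. It stood in 17.8% of such genes called lower, 12.9% of those called higher and 7.47% of all those tested. Counted by promoter and not by gene, the share was 6.75% of all promoters in the table. As before, this describes sequence and not binding.

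Timp1, a secreted inhibitor of metalloproteinases, ran from 8546 to 14007 CPM in the RT mice (median 10988) and 5059 to 12975 CPM in the BA+RT mice (median 7612), with 7 combination mice below every RT mouse (log2 fold change -0.59, SE 0.14, edgeR adjusted p = 0.00646). Timp3, the inhibitor held in the matrix, spanned 836 to 2274 CPM in the RT mice (median 1576) and 409 to 1691 CPM in the BA+RT mice (median 940.5) and overlapped more (log2 fold change -0.70, SE 0.20, edgeR adjusted p = 0.0195). Ctsb was at 9290.2 to 12769.6 CPM in the RT mice (median 11088) and 7623 to 9838 CPM in the BA+RT mice (median 8435), and 7 mice lay below every RT mouse (log2 fold change -0.36, SE 0.062, edgeR adjusted p = 0.000121). Calls of these 3 genes held with each mouse left out.

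**Figure D2:**
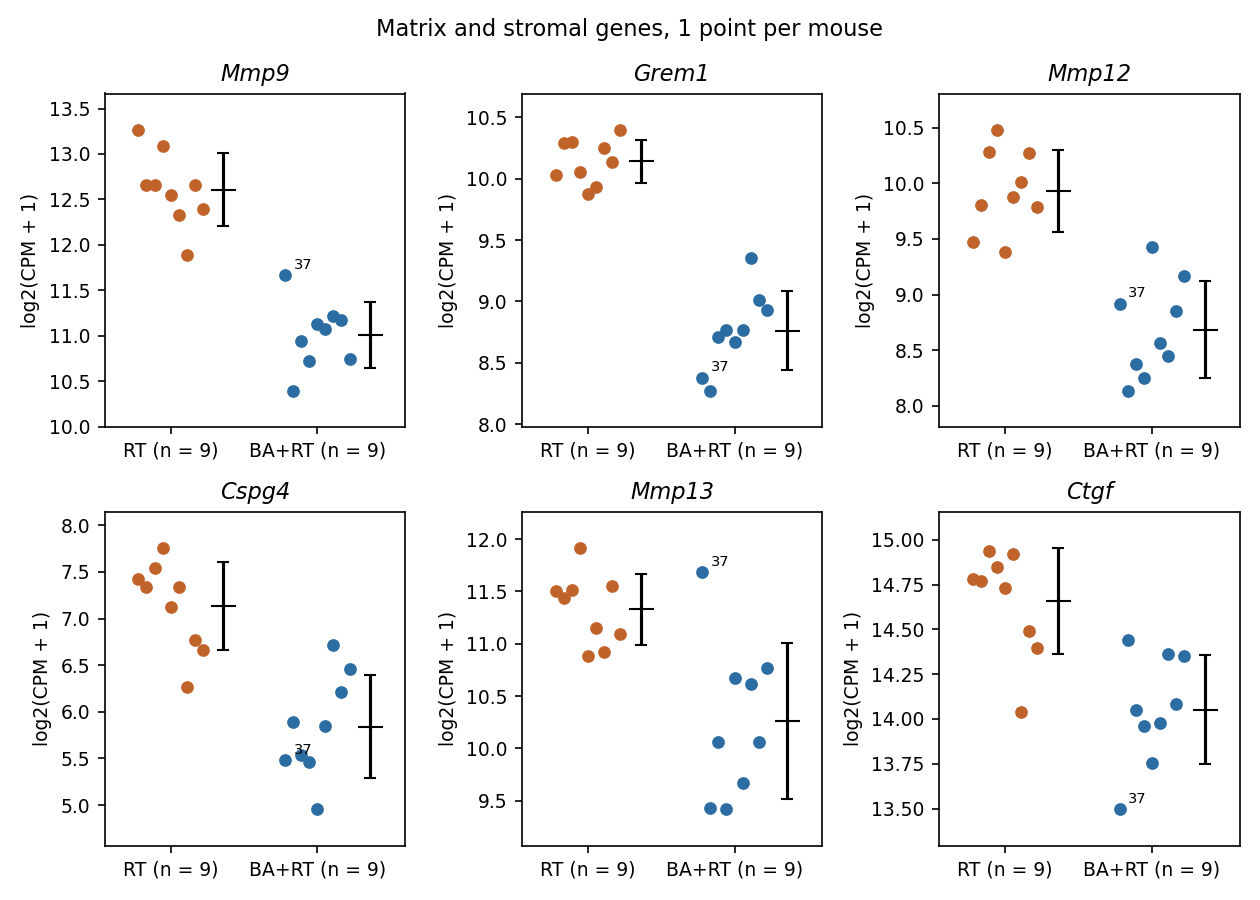
Normalized expression, as log2(CPM + 1), of 6 matrix and stromal genes in RT (orange) and BA+RT (blue) tumours, 1 point per mouse, with the mean and SD as black bars and BA+RT mouse 37 numbered. The groups do not overlap for Mmp9 and Grem1, and mouse 37 is the highest BA+RT mouse for Mmp13.

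Stromal growth factors and their antagonists fell with the proteases. Grem1, a secreted antagonist of bone morphogenetic proteins made by fibroblasts, ran from 939 to 1347 CPM in the RT mice (median 1121) and 308 to 654 CPM in the BA+RT mice (median 434), without overlap (log2 fold change -1.35, SE 0.18, edgeR adjusted p = 4.7e-06). Of 13 profibrotic factors 6 fell and 0 rose (5 and 0 without BA+RT mouse 40), with a median of -0.24. Besides Grem1 these were Ctgf, Edn1, Il13ra2, Pdgfa and Pdgfb. Ctgf, the matricellular connective tissue growth factor, was at 16817 to 31339 CPM in the RT mice (median 27952) and 11558 to 22207 CPM in the BA+RT mice (median 16939). All 9 combination mice were below the RT median and 4 below every RT mouse (log2 fold change -0.60, SE 0.13, edgeR adjusted p = 0.00342). Its amplicon lies in an untranslated region (chr10:24597678-24597772). Edn1, the vasoconstrictor endothelin 1, fell by 0.53 and Il13ra2, the decoy receptor of IL-13, by 1.12 on the log2 scale (adjusted p = 0.014 and 0.00465), although Il13ra2 was not called on its smaller panel (-0.91).

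Cspg4, the NG2 proteoglycan of pericytes, fell most among 7 fibroblast and pericyte markers, with 75.99 to 215 CPM in the RT mice (median 161) and 30.1 to 104 CPM in the BA+RT mice (median 56.5). Of its 9 combination values 7 were below every RT mouse (log2 fold change -1.28, SE 0.20, edgeR adjusted p = 4.18e-05). Fap, the fibroblast activation protein, was 1.38-fold lower, at 219 to 326 CPM in the RT mice (median 288) and 152 to 252 CPM in the BA+RT mice (median 198), with 7 mice below the whole RT group (log2 fold change -0.47, SE 0.12, edgeR adjusted p = 0.0103). These 2 were the only markers of the list called. Acta2, the smooth muscle actin of myofibroblasts, ran from 281 to 678 CPM in the RT mice (median 599.6) and 228 to 623 CPM in the BA+RT mice (median 436) and did not pass (-0.40, SE 0.18, adjusted p = 0.173). The list median was -0.33.

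Of 8 collagens and matrix proteins 0 rose and 2 fell, both of them thrombospondins, secreted glycoproteins that regulate cell and matrix contacts. Thbs2 ran from 10344 to 15662 CPM in the RT mice (median 13152) and 5384 to 10286 CPM in the BA+RT mice (median 9729), without overlap (log2 fold change -0.61, SE 0.13, edgeR adjusted p = 0.0016), and Thbs1 was 1.41-fold lower (adjusted p = 0.0035). Serpinh1, needed for collagen folding, fell by 0.38 (adjusted p = 0.00865). Of 10 endothelial genes 3 fell and 0 rose: Kdr, the VEGF receptor 2, by 0.47, Cd34, a vessel and progenitor sialomucin, by 0.45, and Eng, the TGF-β coreceptor endoglin, by 0.30 on the log2 scale (adjusted p = 0.00865, 0.0126 and 0.014). Eng was not called under upper quartile scaling (-0.26). The ligand gene Vegfa was at -0.22 (adjusted p = 0.204).

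**Figure D3:**
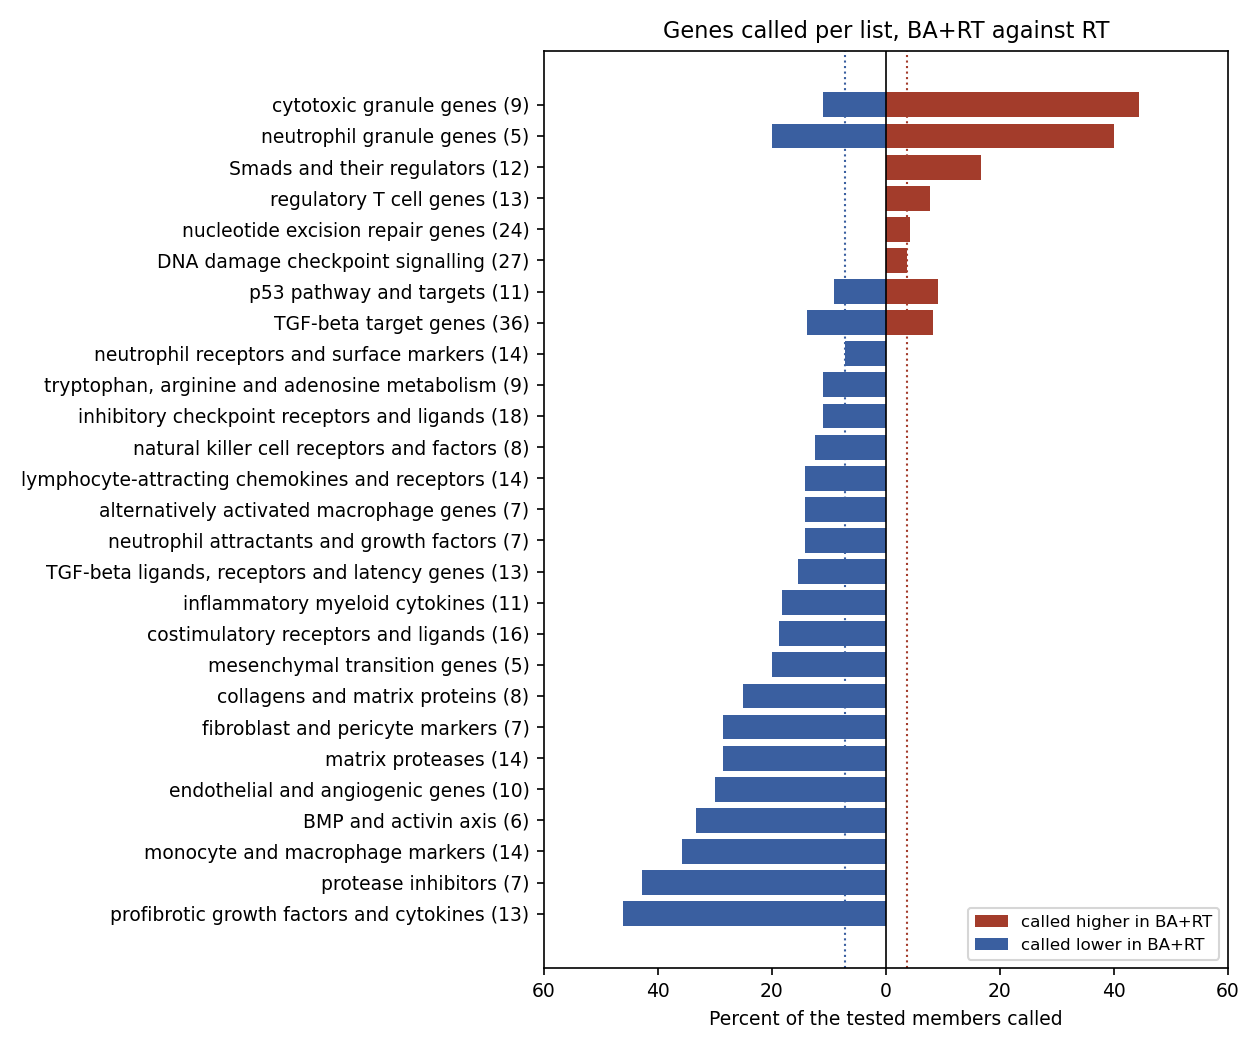
Percent of the tested members of each gene list called higher (red, to the right) or lower (blue, to the left) in BA+RT than in RT tumours, with the number tested in brackets, for lists of 4 or more tested genes with at least 1 call. Dotted lines give the share among all 1038 genes, 3.66% higher and 7.13% lower, and 4 of 9 cytotoxic granule genes and 6 of 13 profibrotic genes stand past them.

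Some genes of the TGF-β axis itself were called. Of 13 ligand, receptor and latency genes 0 rose and 2 fell, Eng and Tgfb2, with a median of -0.023 (-0.14 under scaling to the reference genes). Over all 1038 tested genes 3.66% were called higher and 7.13% lower. Tgfb2, the TGF-β2 ligand, ran from 739 to 1309 CPM in the RT mice (median 1039) and 397 to 1123 CPM in the BA+RT mice (median 648), with 6 combination mice below every RT mouse (log2 fold change -0.51, SE 0.16, edgeR adjusted p = 0.0354). The call was lost without any one of RT mice 19, 20, 23 and 24 or BA+RT mice 37, 39, 40, 41, 42 and 44, with values from -0.50 to -0.43. Tgfb1, which encodes the TGF-β1 ligand, was at -0.17 (adjusted p = 0.134), but was called lower under scaling to the reference genes (-0.29, adjusted p = 0.00238) and when taken from its smaller panel (-0.28). Tgfb3 was at 0.25 (adjusted p = 0.152) and was called higher without BA+RT mouse 45 (0.32). The receptor genes Tgfbr1 (-0.023) and Tgfbr2 (0.14) did not pass (adjusted p = 0.878 and 0.101), but Tgfbr2 was called higher under scaling by library totals (0.16, adjusted p = 0.0427).

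Among 12 Smads and regulators 2 rose and 0 fell. Smad5, a transducer of bone morphogenetic protein signals, rose 1.12-fold, with 2023 to 2393 CPM in the RT mice (median 2198) and 2345 to 2701 CPM in the BA+RT mice (median 2466) and 6 BA+RT mice above every RT mouse (log2 fold change 0.16, SE 0.040, edgeR adjusted p = 0.00718), and Smad6, an inhibitory Smad, rose 1.36-fold (adjusted p = 0.038). Under scaling to the reference genes neither was called (Smad5 0.049, adjusted p = 0.529; Smad6 0.33, adjusted p = 0.111). The Smad6 call was also lost in 9 of the 18 fits with 1 mouse left out, RT mice 20, 22, 23, 24 and 27 and BA+RT mice 37, 40, 41 and 42, with values down to 0.37. Of 36 tested targets of TGF-β 3 rose (Id2, Rara and Smad6), 5 fell (Ctgf, Thbs1, Thbs2, Ptgs2 and Pdgfb) and 28 were not called. Under scaling to the reference genes 0 rose and 6 fell, and without mouse 40 1 rose. Ptgs2, the inducible cyclooxygenase, ran from 1982 to 2752 CPM in the RT mice (median 2442) and 1339 to 2365 CPM in the BA+RT mice (median 1747), with 7 BA+RT mice below every RT mouse (log2 fold change -0.39, SE 0.11, edgeR adjusted p = 0.0179). Inhba, the activin A subunit, was -0.29 (adjusted p = 0.0375), a call lost without any one of RT mice 21, 22 and 23 or BA+RT mice 40, 41, 42, 44 and 45 (-0.21 at the least).

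Several receptors of immune cell traffic and contact fell with no overlap. Cd40, the costimulatory receptor of antigen-presenting cells, ran from 134 to 230.3 CPM in the RT mice (median 187) and 74.1 to 118 CPM in the BA+RT mice (median 95.8) (log2 fold change -0.90, SE 0.10, edgeR adjusted p = 1.88e-08). Cxcr4, the receptor of the chemokine CXCL12, ran from 440.3 to 579 CPM in the RT mice (median 495) and 239.8 to 366 CPM in the BA+RT mice (median 306) (log2 fold change -0.71, SE 0.10, edgeR adjusted p = 5.61e-06). Cxcr6, a homing receptor of resident T and natural killer cells, ran from 24.3 to 39.5 CPM in the RT mice (median 29.1) and 7.46 to 20.6 CPM in the BA+RT mice (median 13.8) (log2 fold change -1.08, SE 0.19, edgeR adjusted p = 0.000179). In each of these 3 genes every combination mouse was below every RT mouse, and the calls held with each mouse left out and under each alternative tried. The Cxcr4 amplicon lies in a coding exon at chr1:128589217-128589311 and that of Cd40 at chr2:165063467-165063557.

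Of 16 costimulatory genes 3 fell and 0 rose: Cd40 and the B7 ligand genes Cd80 (-0.46, adjusted p = 0.0228) and Cd86 (-0.36, adjusted p = 0.0261). Over all tested genes 7.13% were called lower. Cd86 lost its call without any one of RT mice 23, 24 and 27 or BA+RT mice 37, 41, 42, 43 and 44 (-0.27 at the least), and Cd80 without RT mouse 23 or BA+RT mouse 37 or 42 (-0.39 at the least). Cd200, a surface ligand that quiets myeloid cells, ran from 159.95 to 279 CPM in the RT mice (median 253) and 93.1 to 175 CPM in the BA+RT mice (median 121), with 7 combination mice below every RT mouse (log2 fold change -0.87, SE 0.12, edgeR adjusted p = 5.61e-06). Cd200r1, its receptor on myeloid cells, fell by 0.32 (adjusted p = 0.00572).

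Markers of macrophages fell by small amounts. Of 14 tested 5 fell, 0 rose and 9 were not called (4 lower without BA+RT mouse 40), with a median of -0.11. Msr1, a scavenger receptor, ran from 379 to 539 CPM in the RT mice (median 397) and 276 to 372 CPM in the BA+RT mice (median 310.3), without overlap (log2 fold change -0.40, SE 0.090, edgeR adjusted p = 0.00404). The others were Cd14, Cd68, Acp5 and Cd84. Cd68, a lysosomal protein of macrophages, was 1.19-fold lower (adjusted p = 0.00967), and Acp5, the tartrate-resistant phosphatase, 1.38-fold lower (adjusted p = 0.00932) with 8 of 9 mice below every RT mouse. Cd84, an adhesion receptor of blood cells, fell by 0.30 and lost its call in 10 of the 18 fits with 1 mouse left out, RT mice 19, 23, 26 and 27 and BA+RT mice 37, 41, 42, 43, 44 and 45 (-0.25 at the least). The pan-leukocyte gene Ptprc ran from 717 to 1055 CPM in the RT mice (median 823) and 523 to 897 CPM in the BA+RT mice (median 684), with 5 BA+RT mice below every RT mouse (log2 fold change -0.32, SE 0.085, edgeR adjusted p = 0.0114). The summed CPM of the macrophage list, 29618 to 44532 in RT and 25202 to 42349 in BA+RT tumours, overlapped, and the part of cell number in these falls was not tested.

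Of 11 inflammatory myeloid genes 2 fell, Ptgs2 and Il1a, and 0 rose, where 7.13% of all tested genes were called lower. Il1a, which encodes the alarmin interleukin 1α, ran from 286 to 594 CPM in the RT mice (median 387) and 169.8 to 311 CPM in the BA+RT mice (median 230.01), with 6 BA+RT mice below every RT mouse (log2 fold change -0.73, SE 0.17, edgeR adjusted p = 0.00465). Among 14 neutrophil receptors and surface markers 1 fell, the low-affinity Fc receptor gene Fcgr3 (-0.38, adjusted p = 0.00622). That share was near the 7.13% of all tested genes called lower. Ccl2, the monocyte attractant, ran from 2018 to 3924 CPM in the RT mice (median 2887) and 1722 to 9272 CPM in the BA+RT mice (median 3985), its highest value being in mouse 45 (0.39, SE 0.24, adjusted p = 0.34), and the difference was 0.14 without that mouse (adjusted p = 0.728). Ccl5, which attracts T cells, was at -0.20 (adjusted p = 0.528).

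Several gene groups gave no call in either direction. These were 13 type I interferon-stimulated genes (median -0.011), 18 genes of the interferon-γ axis (median 0.11), 15 of class I presentation and 5 of class II presentation (median 0.38). H2-Aa, the class II α chain, ran from 229.98 to 557 CPM in the RT mice (median 325) and 284 to 1747 CPM in the BA+RT mice (median 365). Mouse 40 lay above all others, and the difference of 0.57 (adjusted p = 0.268) was 0.092 without it. The interferon-stimulated antiviral gene Oasl1 differed by -0.087 (SE 0.10, adjusted p = 0.647). No gene was called among 20 of homologous recombination, 22 of base excision repair, 14 of mismatch repair, 7 of end joining or 9 of proliferation, and the medians of these 5 lists lay between -0.043 and 0.028. Under scaling to the reference genes these medians were -0.089, -0.16, -0.12, -0.13 and -0.12 in that order, against -0.057 over all tested genes. That scaling called 1 gene lower in each of the base excision repair, proliferation and type I interferon lists. Mki67, a proliferation marker, was at 1573 to 1929.8 CPM in the RT mice (median 1716) and 1543 to 2134 CPM in the BA+RT mice (median 1737) (log2 fold change 0.0068, SE 0.081), a sign that turned under scaling by reference genes (-0.040) or upper quartiles (-0.023). The lack of a call does not show equal levels.

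Of 11 p53 targets 1 rose and 1 fell, where 3.66% of all tested genes were called higher and 7.13% lower. Gadd45a, a stress-response gene of growth arrest, rose 1.38-fold, with 4205 to 8157 CPM in the RT mice (median 5468) and 6299 to 9891 CPM in the BA+RT mice (median 7404) and 3 BA+RT mice above every RT mouse (log2 fold change 0.46, SE 0.14, edgeR adjusted p = 0.0261), a call lost without RT mouse 23 or 24 or BA+RT mouse 37 or 39 (0.42 to 0.43). Tnfrsf10b, the TRAIL death receptor, fell by 0.22, with 8 of 9 mice below every RT mouse, and was not called without RT mouse 24 or BA+RT mouse 39, 41, 42 or 45 (-0.21 to -0.19). Cdkn1a, the p21 cell cycle inhibitor, differed by -0.090 (SE 0.18, adjusted p = 0.828). Of 27 checkpoint signalling genes 1 rose, the kinase gene Abl1 (0.27, adjusted p = 0.0223). Of 24 nucleotide excision repair genes 1 rose, Ccnh, a cyclin of the TFIIH complex (0.20, adjusted p = 0.0103). Both shares were near the 3.66% of all tested genes called higher. Neither gene was called under scaling to the reference genes (Abl1 0.15, Ccnh 0.080). Abl1 also lost its call without RT mouse 23 or 27 or BA+RT mouse 37 (0.21 to 0.23).

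Genes that striated muscle expresses stood among the largest rises. Ldb3, a Z-disc protein, rose 4.83-fold, Ank1, an ankyrin with a muscle form, 3.35-fold, and Pcx, pyruvate carboxylase, 2.28-fold (adjusted p = 0.0445, 0.0248 and 0.0404). Ldb3 ran from 18.2 to 404 CPM in the RT mice (median 120.3) and 52.7 to 2351 CPM in the BA+RT mice (median 517), with the highest value in mouse 45. The 3 tested muscle markers of the cell type list, Mb (myoglobin), Myod1 (the myogenic factor) and Mef2c, were not called, with a median of 0.85. Their summed CPM was 659.8 to 3159 in RT and 837 to 8361 in BA+RT tumours, again highest in mouse 45. Pvalb, the calcium buffer of fast fibres, was chosen after its values were seen and ran from 20.5 to 668 CPM in the RT mice (median 181) and 72.4 to 5703 CPM in the BA+RT mice (median 765) (2.57, SE 0.88, adjusted p = 0.0545).

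Without mouse 45 the rises were 1.75 for Ldb3, 1.37 for Ank1 and 0.80 for Pcx, and none was called (adjusted p = 0.113, 0.0643 and 0.133). Ldb3 and Pcx also lost their calls without any one of RT mice 21 to 27 or BA+RT mice 38, 41 and 42. With each mouse's mean log2 level of Mb, Myod1 and Mef2c as a covariate, a fit chosen after the data were seen, Ldb3 was 0.94, Ank1 0.67 and Pcx 0.39 (adjusted p = 0.00643, 0.0131 and 0.17). The same fit called 297 genes, 141 higher and 156 lower, and 110 of the 112 calls were among them. Prf1 was then 2.62, Gzmb 2.16 and Mmp9 -1.60. Acta2 (-0.58, adjusted p = 0.00824) was called lower and Tgfb3 (0.40) higher.

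**Figure D4:**
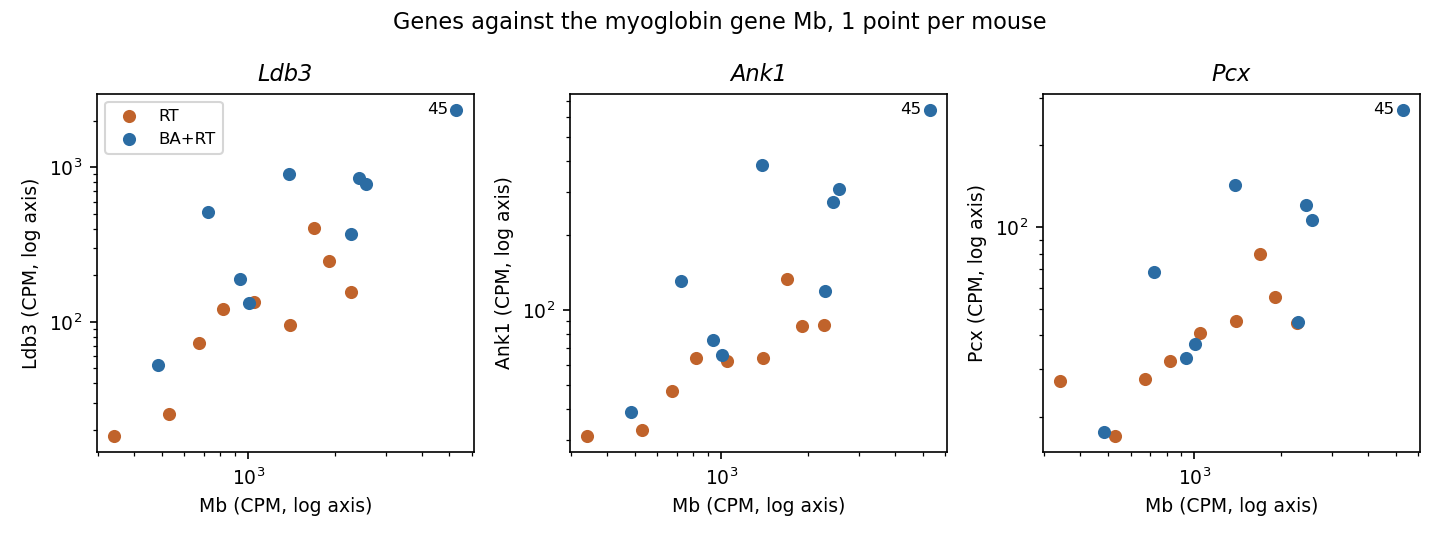
Expression in CPM, on log axes, of Ldb3, Ank1 and Pcx against the myoglobin gene Mb in RT (orange) and BA+RT (blue) tumours, 1 point per mouse, with BA+RT mouse 45 numbered. Mouse 45 is highest on both axes in all 3 panels, and the other BA+RT mice overlap the RT mice in Mb.

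Other single genes completed the largest changes. Bdnf, a neurotrophin, rose 1.43-fold, with 693 to 1248 CPM in the RT mice (median 888) and 811 to 1900.5 CPM in the BA+RT mice (median 1349.6) and 7 BA+RT mice above every RT mouse (log2 fold change 0.51, SE 0.16, edgeR adjusted p = 0.0292), a call lost without any one of RT mice 19, 20, 23, 24 and 26 or BA+RT mice 37 and 39 (0.44 at the least) and under scaling to the reference genes (0.40). Mapre3, a microtubule end-binding protein, rose 1.42-fold (adjusted p = 0.014). Ncald, a neuronal calcium sensor, ran from 47.4 to 82.2 CPM in the RT mice (median 59.2) and 28.3 to 50.6 CPM in the BA+RT mice (median 36.2), with 8 combination mice below every RT mouse (log2 fold change -0.77, SE 0.14, edgeR adjusted p = 0.000438). Rab38, a small GTPase of melanosomes and related organelles, fell by 0.73, and was not called without any one of RT mice 19, 23 and 24 or BA+RT mice 37, 40, 42 and 45 (-0.60 at the least). Cd1d2, an antigen-presenting molecule for lipids, fell by 0.96 on at most 18 counts per library, and its reads may be shared with the near-identical Cd1d1.

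Set beside bintrafusp alfa without radiation, which was compared in 18 other mice, the drug's changes were partly alike and partly opposed. There 280 genes (27%) were called against the isotype control. Of the 112 genes called in irradiated tumours 86 had the same sign without radiation and 48 were also called with that sign, which is 42.9% of the 112 and 17.1% of the 280. Of these 48 genes 36 were lower and 12 higher in both. Another 6 genes were called in opposite directions. The difference between the drug's changes with and without radiation, tested as an interaction, was called for 86 genes (8.29%), of which 51 were more negative and 35 more positive in irradiated tumours, and 22 of the 86 belonged to the 112.

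Prf1, Gzmb, Gzma, Nkg7, Il2ra and Prtn3 were called higher with the drug in both settings, and the interaction was called for none of these 6. Prf1 had mean levels of 5.64 ± 4.61 CPM in control and 90.4 ± 44.2 CPM in BA tumours, and 4.83 ± 3.30 CPM in RT and 25.2 ± 31.3 CPM in BA+RT tumours (SD, n = 9; interaction -1.61, SE 0.70, adjusted p = 0.16). Gzmb gave 30.4 ± 31.2, 232 ± 113, 36.5 ± 18.4 and 136 ± 168 CPM in the same order (interaction -1.03, SE 0.66, adjusted p = 0.361). Prtn3 came closest to a call, with a rise of 1.74 without and 0.78 with radiation (interaction -0.96, SE 0.31, adjusted p = 0.0512). Mmp9 fell by 2.26 without and 1.61 with radiation (interaction 0.65, SE 0.23, adjusted p = 0.0695), and Cd40 by 0.88 and 0.90 (interaction -0.024, SE 0.13, adjusted p = 0.939). Tgfb2 was -1.15 and -0.51 (interaction 0.64, SE 0.23, adjusted p = 0.0792).

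Several myeloid genes moved in opposite directions. Msr1 averaged 301 ± 49.3 CPM in control and 409 ± 62.4 CPM in BA tumours, but 421 ± 51.3 CPM in RT and 319.6 ± 29.6 CPM in BA+RT tumours (SD, n = 9; interaction -0.83, SE 0.13, adjusted p = 0.000138). Cd200r1 rose by 0.27 without radiation (adjusted p = 0.00958) and fell by 0.32 with it (interaction -0.59, SE 0.11, adjusted p = 0.000984), and Cd84 went by 0.28 and -0.30 (interaction -0.57, SE 0.13, adjusted p = 0.00411). Csf2rb, the common β chain of the GM-CSF receptor, went by 0.29 and -0.26 (interaction -0.55, SE 0.12, adjusted p = 0.00315), its fall in irradiated tumours being called by a narrow margin (adjusted p = 0.0375) that 10 of the 18 fits with 1 mouse left out lost (-0.19 at the least; RT mice 19, 20, 21, 23 and 24 and BA+RT mice 37, 41, 42, 43 and 44). Bst1, an ectoenzyme of myeloid and stromal cells, and Anpep, the aminopeptidase CD13, fell in irradiated tumours and were not called without radiation. Bst1 went by 0.26 and -0.47 (interaction -0.72, SE 0.14, adjusted p = 0.00191), and Anpep by 0.18 and -0.36 (interaction -0.55, SE 0.12, adjusted p = 0.00328). Among other genes, Fzr1, an activator of the anaphase-promoting complex, was -0.27 without radiation and 0.24 with it (interaction 0.51, SE 0.10, adjusted p = 0.00164), and its rise in irradiated tumours was not called without RT mouse 23 (0.22, adjusted p = 0.0517) or under scaling to the reference genes (0.19). Psmb1, a proteasome subunit, was -0.089 and 0.19 (interaction 0.28, SE 0.069, adjusted p = 0.00831), and its rise was also not called under the reference genes (0.14).

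Another pattern was a response seen in unirradiated tumours and not called in irradiated ones, with the difference itself called. Foxp3 rose without radiation (adjusted p = 8.17e-06) and Mki67 fell (adjusted p = 0.00135). Foxp3 averaged 6.44 ± 2.24 CPM in control and 19.6 ± 5.84 CPM in BA tumours, against 4.09 ± 1.89 and 4.76 ± 1.88 CPM in RT and BA+RT tumours (interaction -1.38, SE 0.36, adjusted p = 0.0125). Mki67 averaged 1952 ± 285 and 1533 ± 234 CPM without and 1732 ± 111 and 1739.9 ± 175 CPM with radiation (interaction 0.36, SE 0.11, adjusted p = 0.0459). By list, 7 of 14 neutrophil receptors and surface markers and 5 of 9 proliferation genes had a called interaction, against 8.29% of all genes. Mmp12 and Cxcr4 instead had negative changes in both settings, more so after radiation (Mmp12 -0.32 and -1.23, interaction -0.91, SE 0.26, adjusted p = 0.0237; Cxcr4 -0.21 and -0.71, interaction -0.50, SE 0.14, adjusted p = 0.02), although their falls without radiation were not called (adjusted p = 0.203 and 0.131).

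**Figure D5:**
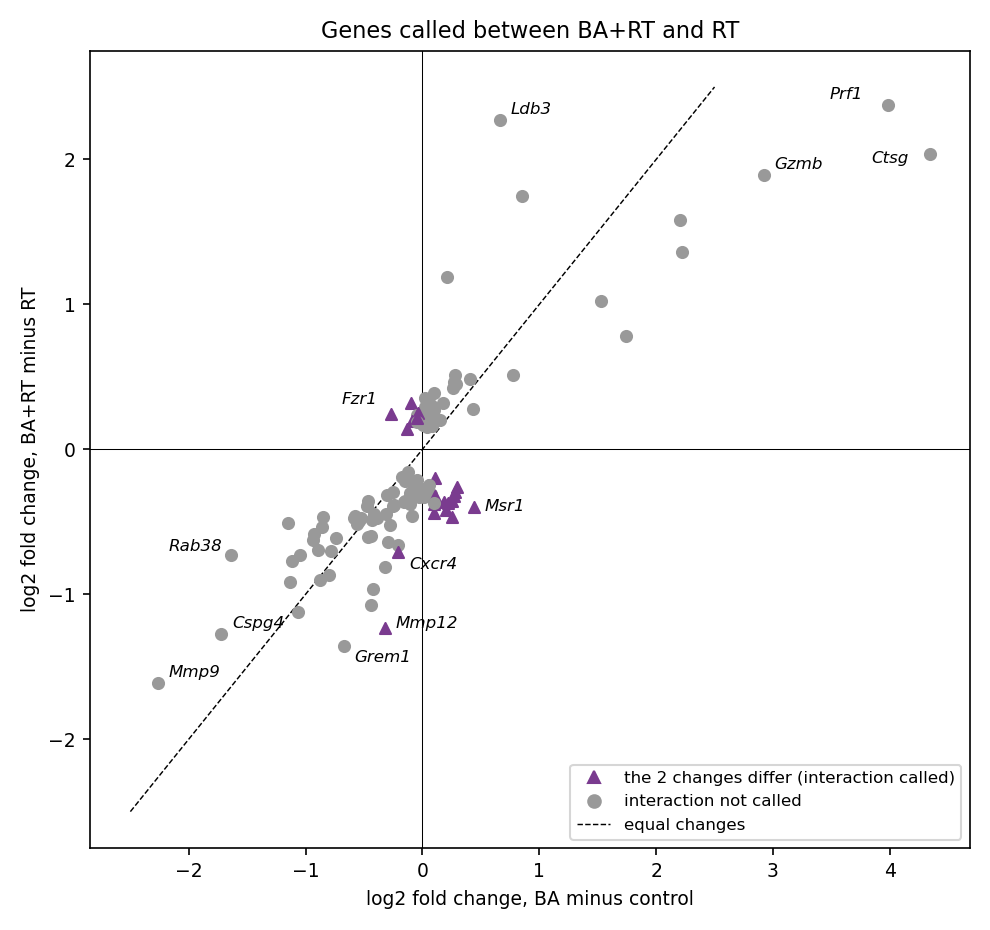
Log2 fold change with bintrafusp alfa in irradiated tumours (BA+RT minus RT, vertical) against that in unirradiated tumours (BA minus control, horizontal) for the 112 genes called between BA+RT and RT, with purple triangles for the 22 genes whose interaction was called and a dashed line of equal changes. Most triangles, among them Msr1 and Fzr1, lie where the 2 changes have opposite signs, while Prf1, Gzmb, Cspg4 and Mmp9 lie where the signs are equal. Both calls that define a triangle use the vertical change, so the place of the triangles partly follows from how they were chosen.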

How the data were processed

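Tumour RNA of 36 mice was read with 2 targeted amplicon panels. The authors deposited raw whole-number counts for each amplicon, and a second table of log2-scale regularized log values, used for 1 alternative. Per the submitters' processing notes DESeq2 was used (no version); the sources used here do not name the aligner or counter, or say whether molecular barcodes were used. Positions are headed GRCh38 but all 1278 gene amplicons lay in the named gene on GRCm38 (GENCODE vM21). The 5 genomic DNA control rows of each panel were left out, with 7 and 10 counts over the 18 irradiated mice and no library above 2.

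Counts of each panel were fitted on their own with edgeR 4.0.16 (R 4.3.3): all 4 groups, default expression filter, TMM, robust quasi-likelihood F test, two-sided. P-values were adjusted over 1038 genes (Benjamini-Hochberg; call under 0.05). SE is the absolute log2 fold change over the square root of F. A gene on both panels (54) was taken from the panel with its larger total; of 51 tested on both, 46 had the same sign. No 2 libraries of a group were alike within sampling noise (lowest chi-square over its degrees of freedom 14.1), and depth is given with the results. Mouse numbers are not shared between groups, so no pairing was used.

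Named genes were the 15 largest rises and falls among calls, up to 4 called genes per list of at least 4 tested members by smallest adjusted p, up to 8 genes called in both the comparison and the interaction, and 27 genes set by name, of which Tgfbr3 and Col1a1 are not analysed here. Some named genes are not reported here. Members, lists and this rule were chosen with earlier results of these data known. Genes named outside it, after their values were seen, are Mb, Myod1, Mef2c, Pvalb, Cd3g, Ncr1, Ptprc, Colec12, Lamp1, the reference genes, and called members listed without values. The test was checked on simulated data. Alternatives were DESeq2 1.42.0, limma 3.58.1, a fit of the 2 irradiated groups alone, other scalings, filters, the other panel and leaving out each mouse.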

Additional observations from a re-analysis of the deposited data

Results flagged for a closer look

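In a test of whether 1 mouse lay far from the other 8 of its group, 30 of 164 pairs of a named gene and a group held such a mouse. The test's rate of about 1 in 20 holds for independent, normally distributed values. Here CPM were used without logs and the pairs share mice, so no chance rate is known for this count. Of these 30 values 12 belonged to BA+RT mouse 40 and 5 to BA+RT mouse 45.

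BA+RT mouse 40 was highest for Cd274 at 465 CPM (next 264), Cd8a at 13.4 CPM (next 4.05), Ctsg at 28.3 CPM (next 6.66), Ctsw at 36.8 CPM (next 28.9), Gzma at 315 CPM (next 67.04), Gzmb at 579 CPM (next 117), H2-Aa at 1747 CPM (next 518), Ifng at 24.8 CPM (next 13.05), Il2ra at 109 CPM (next 69.8), Nkg7 at 176 CPM (next 45.7), Pdcd1 at 7.45 CPM (next 4.66) and Prf1 at 108 CPM (next 20.5). These are genes of granules, T cells, class II presentation and PD-L1. BA+RT mouse 45 was highest for Ccl2 at 9272 CPM (next 5065), Cd34 at 492 CPM (next 338), Ldb3 at 2351 CPM (next 905), Mapre3 at 794 CPM (next 537) and Pcx at 271 CPM (next 143). BA+RT mouse 37 was highest for Acp5 at 1638 CPM (next 994) and Mmp13 at 3296 CPM (next 1748), mouse 41 for Mki67 at 2134 CPM (next 1804), and mouse 44 was lowest for Psmb1 at 1027 CPM (next 1168).

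Among RT mice, mouse 24 was highest for Cd4 at 11.3 CPM (next 4.15) and Cd8a at 9.52 CPM (next 3.48), mouse 27 for Cd274 at 365 CPM (next 243), Cd86 at 371 CPM (next 282) and Ifng at 9.68 CPM (next 4.76), mouse 22 for Gadd45a at 8157 CPM (next 6207), mouse 23 for Msr1 at 539 CPM (next 451) and mouse 26 for Gzma at 52.001 CPM (next 27.9). RT mouse 25 was lowest for Edn1 at 58.2 CPM (next 91.3).

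The change with bintrafusp alfa differed between irradiated and unirradiated tumours by the interaction test (edgeR) for 15 of 82 named genes. On the log2 scale it was more negative after radiation for Anpep (-0.55), Bst1 (-0.72), Cd200r1 (-0.59), Cd68 (-0.30), Cd84 (-0.57), Cd86 (-0.61), Csf2rb (-0.55), Cxcr4 (-0.50), Fcgr3 (-0.48), Foxp3 (-1.38), Mmp12 (-0.91) and Msr1 (-0.83). It was more positive for Fzr1 (0.51), Mki67 (0.36) and Psmb1 (0.28).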

How the results depend on the processing

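Across other scalings, filters, tools and panels, and with 1 mouse left out, the count of genes called stayed between 76 and 153 against 112. Genes called higher numbered 63 with DESeq2 and 19 under reference gene scaling, and ranged from 20 to 61 over fits that left out 1 mouse, against 38. With the muscle score as a covariate, chosen after the data were seen, 297 genes were called, 141 higher and 156 lower, the interaction was called for 138 genes and bintrafusp alfa against control for 435. Without BA+RT mice 40 and 45, also chosen after the data were seen, the count was 124. Of the 112 calls 64 held with each of the 18 mice left out. Under each other scaling, filter, tool and panel, and in a fit of the 2 irradiated groups alone, 68 held wherever tested. Under both 54 held. The fit of the 2 irradiated groups alone called 109 genes, 94 of them among the 112. Among named genes it ended the calls of Pcx (1.19), Smad6 (0.45), Tgfb2 (-0.50), Cd86 (-0.35), Inhba (-0.29) and Csf2rb (-0.25). No paired analysis was possible because the groups share no mouse numbers.

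Signs turned for 5 named genes, none of them called. Ccl2 was -0.0018 with the muscle score. Cd274 was -0.069 without mouse 40 and -0.11 without mice 40 and 45, over a range of -0.069 to 0.27 with 1 mouse left out, and Cd4 ran from -0.45 to 0.13. Mki67 was -0.023 under upper quartiles, -0.040 under reference genes and -0.042 with the muscle score, and -0.022 to 0.030 with 1 mouse left out. Tgfbr1 was 0.0043 under upper quartiles, with the muscle score 0.010, and -0.062 to 0.017. The deposited log values ended the calls of Gzma (0.65), Ctsg (0.24), Cd1d2 (-0.15), Rab38 (-0.22), Csf2rb (-0.15), Inhba (-0.17) and Pcx (0.52). Reference genes ended those of 10 named genes, each of them a rise. These were Ldb3 (2.23), Pcx (1.15), Mapre3 (0.47), Bdnf (0.40), Smad6 (0.33), Fzr1 (0.19), Abl1 (0.15), Psmb1 (0.14), Ccnh (0.080) and Smad5 (0.049). Reference gene scaling also moved the median over all tested genes from 0.011 to -0.057. It moved that of the Smad list from 0.057 to -0.058 and that of the TGF-β target list from 0.032 to -0.061. In each case the cause was not tested. Counts per library limit Cd8a, Cd4, Foxp3, Pdcd1, Ctsg and Cd1d2, and the number of molecules behind a count is not known.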
